A study of Mus musculus with 9 samples.

Results

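The type I interferon-stimulated genes described here are 40 mouse genes, taken by symbol from the authors' table of normalized FPKM (sequenced fragments per length of transcript, scaled to the library size). All 40 were among the 16409 genes of that table. A filter kept genes with at least 1 FPKM in at least 3 of the 9 libraries, which left 12555 genes and 39 of the 40 members. Oas2 did not pass, and Ifit2 and Ifit3b passed with no Mock library at 1 FPKM, so that these 2 were tested only because of their values in the other groups.

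Type I interferons bind the receptor formed by IFNAR1 and IFNAR2, whose kinases JAK1 and TYK2 start the signal. STAT2 and IRF9 take part in the complex ISGF3, which binds interferon-stimulated response elements (ISRE) in the promoters of its target genes. The targets include antiviral enzymes, sensors of foreign RNA and the factor IRF7, which amplifies interferon production. Interferon-γ acts through its own receptor and another element (GAS), and many of the genes answer to both signals. Regulatory T cells (Tregs), the FOXP3+ T cells that restrain immune responses, carry both receptors.

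Gene expression was measured by RNA sequencing in Tregs sorted as CD4+ GFP+ cells from tumours of Lewis lung carcinoma (LLC), a mouse lung cancer line, in C57BL/6 mice labelled wild-type, with 3 libraries per group and 3 to 4 mice pooled in each library. The Mock group was sorted from tumours of mock-transfected LLC, in mice whose label is untreated. The β8 isotype group came from LLC expressing the integrin subunit β8 in mice given an isotype control antibody, and the anti-β8 group from the same kind of tumour in mice given the anti-β8 antibody C6D4. That antibody was given into the peritoneum, starting on day 7 of tumour growth, at 7 mg/kg and with 2 injections per week, and the tumours were removed on day 14. The Mock mice received no antibody, so a difference between Mock and either other group holds β8 expression and an injected antibody together, and the 2 cannot be told apart. What drives the GFP is not described in the labels, which also do not say whether the β8 line was 1 clone. Each pool mixes several animals, so the spread between pools is not the spread between single mice.

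The IFIT genes on chromosome 19 had the highest median difference between β8 isotype and Mock and did not all show the same order of groups. That median includes Ifit2 and Ifit3b, which were tested only because of their values outside Mock. Promoter stretches of Ifit3, its near-identical neighbour Ifit3b and Ifit1 are therefore printed here, from the RefSeq windows of build GRCm38.p6. Each covers the bases 200 to 51 before the RefSeq start and is written 5′ to 3′ on the plus strand, which is that of the genes. Capitals mark the longest run of bases that the windows of all 3 genes share. The positions are chr19:34583329-34583478 for Ifit3, chr19:34607757-34607906 for Ifit3b and chr19:34640689-34640838 for Ifit1.
Ifit3: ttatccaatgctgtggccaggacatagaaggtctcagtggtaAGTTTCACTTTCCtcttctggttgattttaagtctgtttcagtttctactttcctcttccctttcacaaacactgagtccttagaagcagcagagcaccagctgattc
Ifit3b: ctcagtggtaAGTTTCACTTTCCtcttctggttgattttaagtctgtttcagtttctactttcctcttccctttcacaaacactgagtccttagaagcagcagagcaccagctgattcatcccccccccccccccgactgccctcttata
Ifit1: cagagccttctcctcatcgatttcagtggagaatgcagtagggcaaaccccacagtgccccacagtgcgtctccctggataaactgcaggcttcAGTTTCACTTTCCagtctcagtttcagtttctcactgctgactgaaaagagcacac

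The shared run is 13 bases long and begins 158 bases before the start in Ifit3, 190 in Ifit3b and 106 in Ifit1. Of the 27025 genes with a RefSeq window of 250 bases before to 50 bases after the start, 5 hold it on either strand (0.0185%), which are these 3, Ifit1bl2 and Cxcl10. It is in none of the other members among the 31 with a window. The windows of Ifit3 and Ifit3b also share an identical run of 169 bases, shifted by 32 bases against the start. The run was picked from the 3 printed genes, so its presence in their windows was fixed in advance. A shared run is a string of letters and does not show that a factor was bound in these cells.

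Over the whole series, 2 libraries stood apart. Anti-β8 pools 2 and 3 had 9772 and 9283 genes at 1 FPKM or more, against 11785 to 12177 in the other 7. Their correlations with every other library, on the log2(FPKM + 1) scale across genes, were 0.791 to 0.856, against 0.908 to 0.946 between the other 7. Mitochondrial transcripts made up 0.842% and 0.822% of their FPKM, against 0.378% to 0.570%. Among the members, Oasl2, Oas2 and Ifit3b were listed at 0 in both of these libraries in the unnormalized table, and appear in the normalized one at its lowest values of 0.0520 and 0.0936 FPKM. Other values near 0 in these libraries were also higher after normalization. In pool 2, Oas3 went from 0.0446 to 0.943 FPKM and Ifi44 from 0.0328 to 0.902. In pool 3, Ifi44 went from 0.0617 to 1.15, Mx1 from 0.0389 to 1.05 and Oasl1 from 0.136 to 1.33. As a check of the label, Foxp3, the factor that defines Tregs, was at 86.8 to 117 FPKM in Mock, 73.2 to 113 under isotype control and 119 to 132 in anti-β8. Foxp3 belongs to the 7 Treg markers examined and was higher in anti-β8 than under isotype control, while most of the 7 went the other way. In anti-β8 against β8 isotype, 2 were above 0 and 5 below, with a median log2 difference of -0.27.

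Within Mock the members spanned a wide range of levels per length. Their group means ran from 0.191 FPKM for Oas2 to 2171 FPKM for Ifi27l2a, which encodes a small hydrophobic protein of the IFI27 family, with 5 members at 100 FPKM or more, 17 between 10 and 100, 14 between 1 and 10 and 4 under 1. Ifi27l2a made up 43.9% and Shisa5, a protein of the endoplasmic reticulum tied to cell death, 30.2% of the FPKM summed over the members. In β8 isotype 10 members had a mean of at least 100 FPKM, and in anti-β8 there were 8.

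Interferon-stimulated genes were higher in Tregs from β8-expressing tumours under isotype control than in Tregs from Mock tumours, across nearly the whole list but without any single member passing the test. In 34 of the 40 members every β8 isotype pool was above every Mock pool, while 7.65% of all 16409 genes showed that pattern. None was lower in that way, against 7.66% of genes. The exceptions were Mx1, Parp14, Eif2ak2, Samd9l, Cmpk2 and Herc6. The median log2 difference over the 39 tested members was 0.83, against 0.01 over all 12555 genes, and 38 of the 39 were above 0, against 50.8% of genes. The differences ran from -0.22 for Mx1 to 1.71 for Ifit3. Differences are on the log2(FPKM + 1) scale, which understates changes of low genes.

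In limma, with Benjamini-Hochberg adjustment over all 12555 genes and a threshold of 0.05, 0 members passed in either direction between β8 isotype and Mock, where 0.00796% of genes were called higher. At an unadjusted p under 0.05, 22 of 39 members were higher and 0 lower, against 2.99% and 2.58% of all genes. The 22 include Ifit2 and Ifit3b, which were tested only because of their values outside Mock. With both sparse anti-β8 libraries left out, Irf7, Ube2l6 and Bst2 passed, and 34 members were higher at an unadjusted p under 0.05, against 6.47% of genes. How many of all genes passed in that refit is not given, so these passes cannot be read as particular to the members. Transcripts of stromal cells moved with the comparison of β8 isotype and Mock. The 9 fibroblast and endothelial markers summed to 18.6 to 22.6 FPKM (unnormalized) in Mock, 59.4 to 166 under isotype control and 32.05 to 80.1 in anti-β8, with Pdgfra and Pdgfrb at 0 in all Mock pools and Pdgfra at 0 in all anti-β8 pools. Their part in the result was not tested.

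The anti-β8 group lay between the others for most members. Against β8 isotype the median member difference was -0.39, against -0.04 over all genes, and 10 of 39 members were above 0, against 47.1% of genes. All 3 anti-β8 pools were below all 3 β8 isotype pools in 8 of the 40 members (Isg20, Ifit3, Oasl2, Rsad2, Usp18, Ddx58, Ube2l6 and Bst2), where 6.80% of all genes showed that pattern. For Ube2l6 this held in the normalized values but not in the unnormalized ones. All 3 anti-β8 pools were above all 3 β8 isotype pools in 2 members, Ifit1 and Parp14, against 8.07% of genes. In limma 0 members passed in either direction, where 0.00796% of genes were called higher and 0.0558% lower, and at an unadjusted p under 0.05 6 members were lower and 1 higher, against 6.20% and 3.97% of genes. Without anti-β8 pool 1, which leaves the 2 sparse libraries in that group, Oasl2 and Usp18 passed as lower. The share of all genes that passed there is not given, so this cannot be read as particular to the members. At an unadjusted p under 0.05, 12 members were lower without that pool, against 1503 of all 12555 genes. In the unnormalized table Oasl2 is at 0 in both sparse libraries, and Usp18 is near 0 in pool 2 and at 1.99 FPKM in pool 3. Without pools 2 and 3 that count was 2, against 3.03% of genes, and the median was -0.19, and without β8 isotype pool 1 the median was -0.25.

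Against Mock, the anti-β8 group was higher in most members, with a median difference of 0.49, against -0.02 over all genes, and 33 of 39 members above 0, against 48.3% of genes. All anti-β8 pools were above all Mock pools in 11 of the 40 members, Isg15, Ifit1, Ifit2, Ifit3, Zbp1, Parp9, Parp14, Rtp4, Ifih1, Bst2 and Shisa5, where 8.09% of all genes showed that pattern, and below them in 0, against 7.36%. In limma 0 members passed, where 0.0319% of genes were called higher and 0.151% lower, and at an unadjusted p under 0.05 14 members were higher and 1 lower, against 6.09% and 7.87% of genes. Without anti-β8 pool 1, Parp14 passed, in a refit whose share of all genes passing is not given. There 9 members were higher at an unadjusted p under 0.05, against 9.74% of genes. Without Mock pool 3 that count was 7, against 4.14%. The comparisons share groups, so their differences are not independent of each other. In bulk RNA from pools, more cells with a gene switched on and more RNA of it per cell cannot be told apart.

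**Figure D1:**
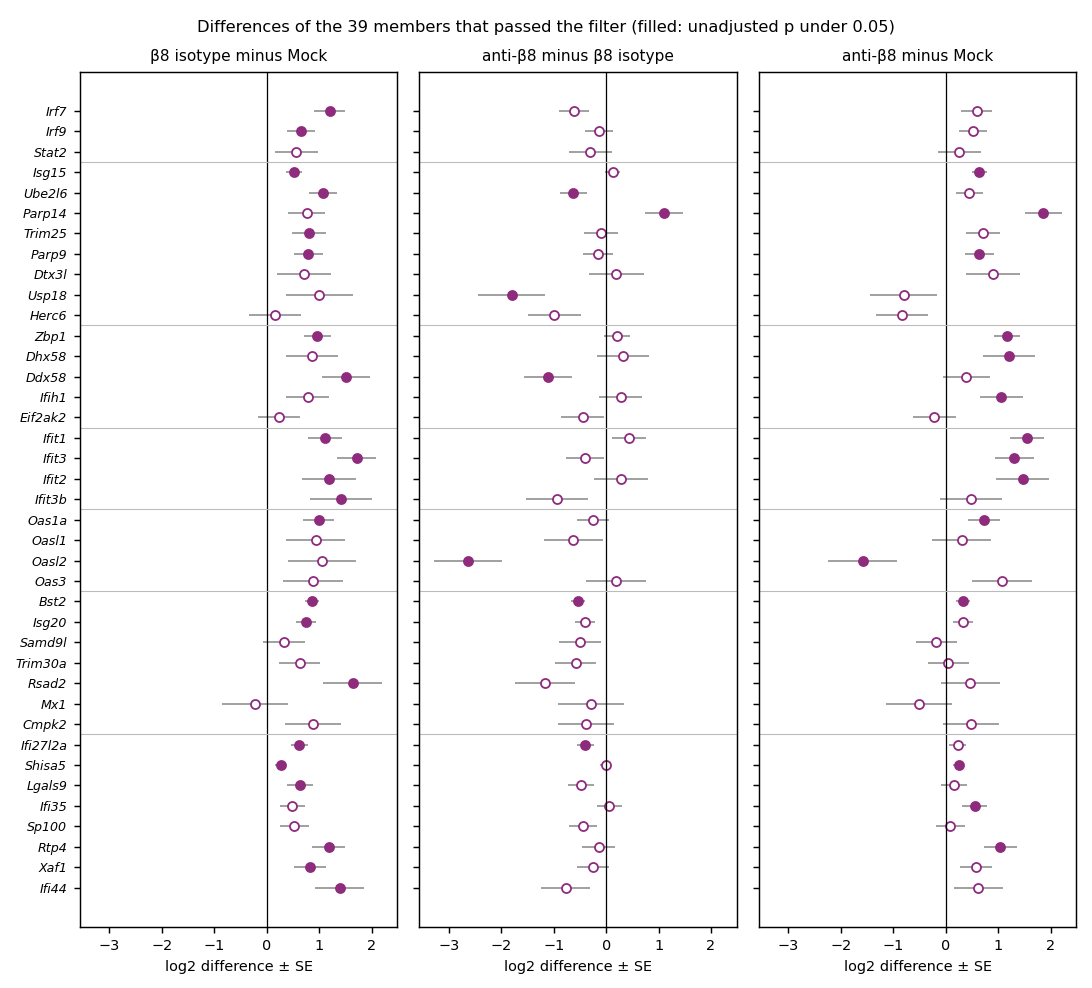
Log2 differences (horizontal axis, log2(FPKM + 1) scale) with their standard errors from limma for the 39 tested members in the 3 comparisons, grouped by role. Filled points have an unadjusted p under 0.05, which is not the adjusted threshold that 0 members passed. In the left panel all points but Mx1 lie above 0, and in the middle panel 10 of 39 do.

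The pools also differed among themselves. Of the 40 members, 36, 36 and 37 were above every Mock pool in β8 isotype pools 1, 2 and 3. In anti-β8 pools 1, 2 and 3 there were 31, 20 and 19, and 16, 24 and 25 members lay below every β8 isotype pool, where 25.0%, 38.6% and 39.4% of all genes did. Anti-β8 pool 1, the library of that group with full detection, was thus closer to the β8 isotype pools than the 2 sparse libraries were. The median member stood 0.89, 0.88 and 0.73 log2 units above the Mock mean in the β8 isotype pools, and 0.73, 0.25 and 0.39 in the anti-β8 pools. Over all genes, 34.8% and 36.1% were above every Mock pool in anti-β8 pools 2 and 3, against 27.3% in pool 1 and 24.6% to 26.2% in β8 isotype, so the sparse libraries were scattered more widely around the others in both directions. The part of low detection in the anti-β8 values was not tested.

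**Figure D2:**
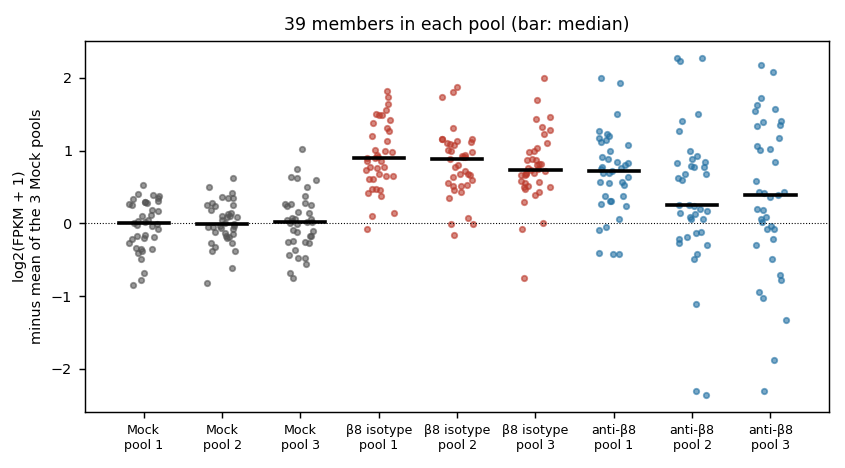
The 39 tested members in each of the 9 pools, as log2(FPKM + 1) minus the mean of the 3 Mock pools (vertical axis); each point is a gene and each bar the median. The medians of the β8 isotype pools lie between 0.73 and 0.89, and those of the anti-β8 pools are 0.73, 0.25 and 0.39, with a wider spread of genes in pools 2 and 3.

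**Figure D3:**
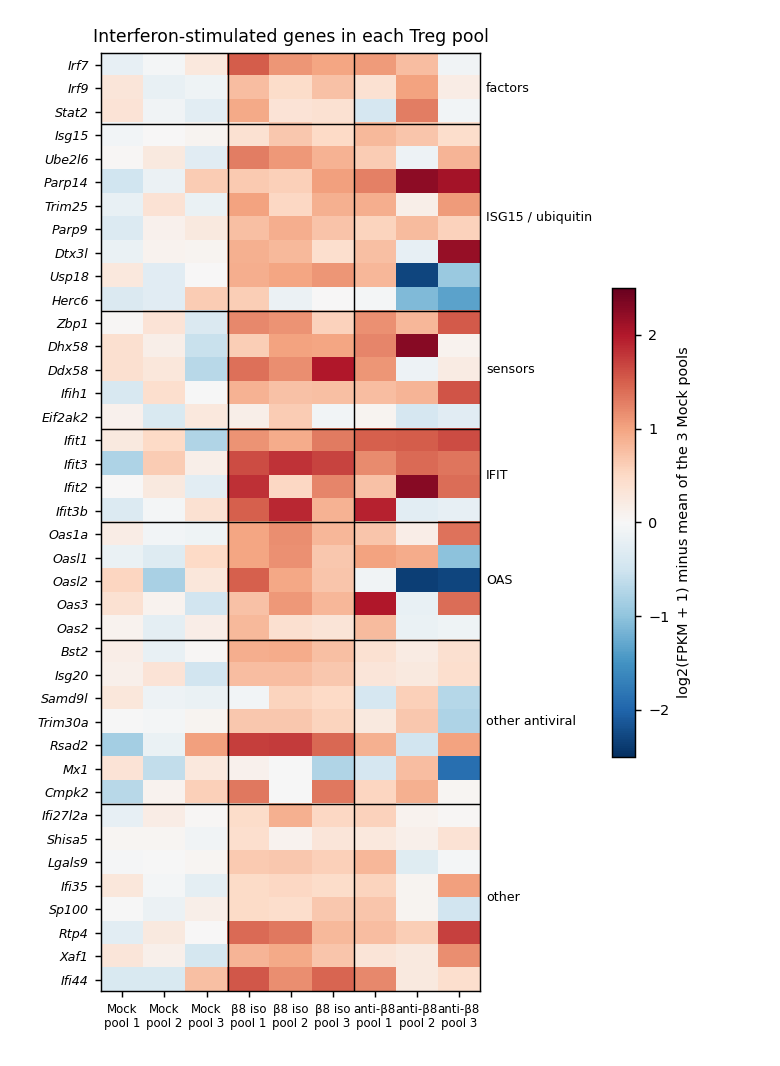
The 40 members (rows, grouped by role) in the 9 pools (columns), coloured by log2(FPKM + 1) minus the mean of the 3 Mock pools. The 3 β8 isotype columns are above the Mock mean in nearly all rows, while in anti-β8 pools 2 and 3 high rows such as Parp14 stand beside low ones such as Oasl2 and Usp18.

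Among the transcription factors, Irf7 showed the clearest separation. It had 40.7, 45.3 and 56.5 FPKM in the Mock pools, 136, 103 and 94.6 under isotype control and 100, 81.4 and 44.5 in anti-β8. The β8 isotype pools lay above all Mock pools, with a log2 difference of 1.20 ± 0.29 (SE, adjusted p = 0.369), while anti-β8 pool 3 was within the Mock range. The anti-β8 group differed by -0.61 from β8 isotype (adjusted p = 0.501) and by 0.59 from Mock (adjusted p = 0.393). Irf9, the DNA-binding subunit of ISGF3, had 35.5, 24.9 and 26.5 FPKM in Mock, 49.7, 39.6 and 48.3 under isotype control and 37.5, 58.3 and 32.7 in anti-β8. Its β8 isotype pools were above Mock by 0.65 ± 0.27 (adjusted p = 0.789), and its anti-β8 pools overlapped both groups. Stat2, a signalling subunit of ISGF3, had 28.2, 20.8 and 18.2 FPKM in Mock, 43.4, 28.4 and 29.2 under isotype control and 16.2, 54.6 and 20.9 in anti-β8. For Stat2 the lowest β8 isotype pool was only just above the highest Mock pool (0.56 ± 0.41, adjusted p = 1), and the anti-β8 pools ran from below every Mock pool to above every β8 isotype pool.

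ISG15 is a ubiquitin-like protein that is attached to other proteins and also secreted. Isg15 had 148, 156 and 164 FPKM in Mock, 203, 249 and 220 under isotype control and 273, 250 and 210 in anti-β8. Both β8 groups lay above Mock and overlapped each other, with log2 differences of 0.52 ± 0.15 (adjusted p = 0.456) for β8 isotype and 0.64 ± 0.15 (adjusted p = 0.117) for anti-β8 against Mock, and 0.12 between the 2 (adjusted p = 0.777). Ube2l6, the enzyme that carries ISG15 to its targets, had 59.6, 68.6 and 47.9 FPKM in Mock, 142, 124 and 107 under isotype control and 91.0, 53.0 and 105 in anti-β8. It separated β8 isotype from both other groups, by 1.07 ± 0.26 from Mock (adjusted p = 0.369). Anti-β8 was lower than β8 isotype by a log2 difference of -0.62 (adjusted p = 0.473), with anti-β8 pool 2 inside the Mock range. The separation from anti-β8 was narrow. In the unnormalized table anti-β8 pool 3, at 107.0 FPKM, was above β8 isotype pool 3, at 105.4.

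Usp18, the protease that removes ISG15 and also damps signalling from IFNAR2, had 9.72, 6.34 and 7.89 FPKM in Mock, 15.6, 16.6 and 18.2 under isotype control and 14.9, 0.803 and 3.64 in anti-β8. Its β8 isotype pools were tight and above Mock (1.00 ± 0.64, adjusted p = 1). Anti-β8 pool 1 was near β8 isotype, and the sparse pools 2 and 3 were below every Mock pool. The error of 0.64 draws on the spread in all 3 groups, whose SDs were 1.69 FPKM in Mock, 1.27 under isotype control and 7.44 in anti-β8. The anti-β8 group differed by -1.80 ± 0.64 from β8 isotype (adjusted p = 0.430).

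Parp14, an ADP-ribosyltransferase that works with PARP9, went against the list. It had 10.8, 14.0 and 24.9 FPKM in Mock, 24.9, 24.2 and 32.9 under isotype control and 38.9, 77.0 and 69.5 in anti-β8. It was highest in anti-β8, where all 3 pools were above all others, with a log2 difference of 1.86 ± 0.35 against Mock (adjusted p = 0.0838) and 1.10 ± 0.35 against β8 isotype (adjusted p = 0.423), while β8 isotype and Mock overlapped (0.76, adjusted p = 0.907). Its neighbours Dtx3l, a ubiquitin ligase, and Parp9, its partner, lie with it in 140 kb of chromosome 16 (GENCODE M21, GRCm38). Parp9 had 9.35 to 14.6 FPKM in Mock, 20.7 to 23.8 under isotype control and 18.4 to 21.8 in anti-β8, so that its anti-β8 and β8 isotype pools overlapped above Mock. Dtx3l was at 6.62 to 8.09 FPKM in the Mock pools and at 10.4 to 14.8 under isotype control, and ran from 6.35 in anti-β8 pool 2 to 37.4 in pool 3. Dtx3l and Parp9 overlap on opposite strands over 458 exonic bases and the libraries do not mark strand, so a share of their reads cannot be assigned. Trim25, the ligase that acts on the sensor RIG-I, was at 12.9 to 19.5 FPKM in Mock, 21.7 to 30.9 under isotype control and 16.6 to 32.3 in anti-β8. Herc6, a ligase that attaches ISG15 in mice, overlapped between Mock and β8 isotype, at 3.49 to 7.88 and 4.16 to 7.79 FPKM.

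The sensors of nucleic acid were led by Zbp1, which binds Z-form RNA and DNA and can start cell death. It had 96.5, 121 and 73.4 FPKM in Mock, 221, 208 and 142 under isotype control and 211, 170 and 279 in anti-β8. Both β8 groups lay above Mock and overlapped each other, by 0.97 ± 0.25 (adjusted p = 0.385) and 1.17 ± 0.25 (adjusted p = 0.0995). Ddx58, which encodes RIG-I, had 8.04, 7.37 and 3.27 FPKM in Mock, 16.9, 14.3 and 26.3 under isotype control and 13.8, 5.32 and 6.87 in anti-β8. For Ddx58 β8 isotype stood above Mock by 1.51 ± 0.46 (adjusted p = 0.520) and anti-β8 below β8 isotype by a difference of -1.11 ± 0.46 (adjusted p = 0.465), with anti-β8 pools 2 and 3 in the Mock range. Ifih1, the gene of the related sensor MDA5, was instead above Mock in both β8 groups, at 2.19 to 4.67 FPKM in Mock, 6.01 to 6.73 under isotype control and 6.23 to 11.6 in anti-β8. Dhx58, the regulator of both, was at 6.42 to 13.4 FPKM in the Mock pools and at 15.7 to 20.9 under isotype control, and ranged from 10.6 to 51.8 in anti-β8. Eif2ak2, the kinase PKR that halts translation, overlapped in all comparisons, at 3.61 to 8.56 FPKM over the 9 pools.

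The IFIT genes, whose proteins bind viral RNA and block its translation, lie side by side on the plus strand of chromosome 19 (34550694 to 34650009, GRCm38) in the order Ifit2, Ifit3, Ifit3b, Ifit1. The 4 had the highest median difference between β8 isotype and Mock of the role groups, 1.303, and in each of them all β8 isotype pools were above all Mock pools. Ifit2 and Ifit3b entered that median only through their values outside Mock, with differences of 1.19 and 1.42. Those of Ifit1 and Ifit3 were 1.11 and 1.71. Ifit3 had 3.43, 10.8 and 7.45 FPKM in Mock, 22.7, 25.6 and 23.6 under isotype control and 16.2, 19.2 and 18.3 in anti-β8. The 3 groups did not overlap and stood in the order Mock, anti-β8, β8 isotype, with 1.71 ± 0.37 between β8 isotype and Mock (adjusted p = 0.273), -0.40 between anti-β8 and β8 isotype (adjusted p = 0.711) and 1.31 ± 0.37 between anti-β8 and Mock (adjusted p = 0.196). Ifit1 had 16.6, 20.0 and 7.84 FPKM in Mock, 31.4, 27.1 and 35.2 under isotype control and 40.9, 41.1 and 44.9 in anti-β8. Its groups did not overlap either, but here anti-β8 was the highest, by 1.55 ± 0.33 over Mock (adjusted p = 0.0953) and 0.43 ± 0.33 over β8 isotype (adjusted p = 0.641). Both promoter stretches printed above hold the shared run, which was picked as common to them. The order of the β8 groups was not the same in Ifit1 and Ifit3, and that difference was not tested.

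Ifit2, at 0.158 to 0.648 FPKM in Mock, had 0.975 to 3.91 under isotype control and 1.29 to 5.67 in anti-β8. Ifit3b was at 0 to 0.644 FPKM in the Mock pools, 1.32 to 3.66 under isotype control, and at 3.81 in anti-β8 pool 1 with the sparse pools at the floor. Ifit3 and Ifit3b share many reads in principle, since 51.2% of the distinct 50-base words of Ifit3 transcripts occur in those of Ifit3b, so the split between them is uncertain.

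The OAS genes encode enzymes that sense double-stranded RNA and switch on RNase L, and the OAS-like genes are their relatives. Oas1a had 26.5, 22.1 and 21.4 FPKM in Mock, 46.9, 52.9 and 41.8 under isotype control and 38.0, 26.2 and 60.7 in anti-β8. Its β8 isotype pools lay above Mock by 0.99 ± 0.30 (adjusted p = 0.523) and the anti-β8 pools spread over both groups. The value is uncertain, because 57.6% of its 50-base words are also found in Oas1g. Oasl2 had 6.79, 2.06 and 5.57 FPKM in Mock, 14.1, 9.60 and 7.69 under isotype control and 4.07 in anti-β8 pool 1, with anti-β8 pools 2 and 3 listed at 0. All anti-β8 pools were below all β8 isotype pools (-2.63 ± 0.65, adjusted p = 0.351), and pool 1, the one with full detection, lay within the Mock range. Its neighbour Oasl1 had 2.77 to 5.67 FPKM in Mock, 6.49 to 9.40 in β8 isotype, and 8.44, 8.01 and 1.33 in anti-β8. Oas3 was at 0.597 to 1.87 FPKM in Mock, 2.69 to 3.70 under isotype control and 0.943 to 7.85 in anti-β8, and Oas2 stayed at or below 1.06 FPKM in every pool.

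Of the other antiviral genes, Bst2, which encodes tetherin, a membrane protein that holds budding virus to the cell, had the smallest p of all members. It had 261, 204 and 236 FPKM in Mock, 438, 441 and 391.9 under isotype control and 304, 268 and 306 in anti-β8. The 3 groups did not overlap, and anti-β8 lay between the others. The log2 difference was 0.86 ± 0.13 between β8 isotype and Mock (adjusted p = 0.134), -0.53 ± 0.13 between anti-β8 and β8 isotype (adjusted p = 0.351) and 0.33 ± 0.13 between anti-β8 and Mock (adjusted p = 0.319). Isg20, an exonuclease of RNA, had 191, 224 and 126 FPKM in Mock, 301, 301 and 280 under isotype control and 218, 209 and 236 in anti-β8. Its β8 isotype pools were above all others, by 0.74 ± 0.19 over Mock (adjusted p = 0.385), and its anti-β8 pools differed by -0.41 ± 0.19 from β8 isotype (adjusted p = 0.497) and overlapped Mock.

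Rsad2 encodes viperin, which makes a chain-terminating nucleotide from CTP, and lies next to Cmpk2, a nucleotide kinase. Rsad2 was at 1.23 to 7.15 FPKM in Mock, 9.87 to 12.4 under isotype control and 1.87 to 7.11 in anti-β8. In these normalized values the anti-β8 pools were within the Mock range. Unnormalized, anti-β8 pool 2 was at 0.789 FPKM, below every Mock pool, the lowest of which was at 1.51. Cmpk2 overlapped, at 1.17 to 4.28, 2.47 to 7.75 and 2.63 to 5.44 FPKM. Mx1, a GTPase that traps viral nucleoproteins and a standard marker of the type I response, was the one tested member below 0 in β8 isotype against Mock. It had 8.55, 3.92 and 8.07 FPKM in Mock, 7.10, 6.46 and 3.47 under isotype control and 4.66, 11.9 and 1.05 in anti-β8, and all groups overlapped (-0.22 ± 0.63, adjusted p = 1 for β8 isotype against Mock). In C57BL/6 mice Mx1 is known to carry a deletion that leaves no working protein. Trim30a, a ligase that limits inflammatory signalling, was at 9.26 to 10.02 FPKM in Mock, 14.5 to 15.9 under isotype control and 5.19 to 15.9 in anti-β8. Samd9l, a restriction factor of poxviruses, overlapped throughout, at 7.10 to 19.0 FPKM over the 9 pools.

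The remaining members held the most abundant transcripts. Ifi27l2a had 1859, 2444 and 2211 FPKM in Mock, 2970, 3977 and 3094 under isotype control and 3197, 2300 and 2188 in anti-β8. The β8 isotype pools were above Mock by 0.62 ± 0.16 (adjusted p = 0.385), while anti-β8 pools 2 and 3 were in the Mock range and pool 1 in that of β8 isotype (-0.39 ± 0.16 against β8 isotype, adjusted p = 0.463). Rtp4, a receptor chaperone, had 22.5, 32.7 and 27.7 FPKM in Mock, 74.8, 69.3 and 48.5 under isotype control and 47.4, 42.6 and 92.1 in anti-β8. Both β8 groups were above Mock and overlapped each other, by 1.18 ± 0.31 (adjusted p = 0.407) and 1.04 ± 0.31 (adjusted p = 0.221). Shisa5 separated from Mock by a small margin, at 1398 to 1543 FPKM in Mock, 1578 to 1989 under isotype control and 1629 to 1929 in anti-β8. Lgals9, which encodes galectin-9, a sugar-binding ligand of TIM-3, was at 90.2 to 94.9 FPKM in Mock, 139 to 148 in β8 isotype, and 164, 74.5 and 89.6 in anti-β8. Ifi35, Xaf1 and Sp100 were each above all Mock pools in β8 isotype, at 107 to 111, 41.3 to 49.0 and 71.4 to 84.3 FPKM, and their anti-β8 pools overlapped both other groups. Ifi44 was at 0.237 to 1.71 FPKM in Mock, 2.61 to 3.72 under isotype control and 0.902 to 2.705 in anti-β8.

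**Figure D4:**
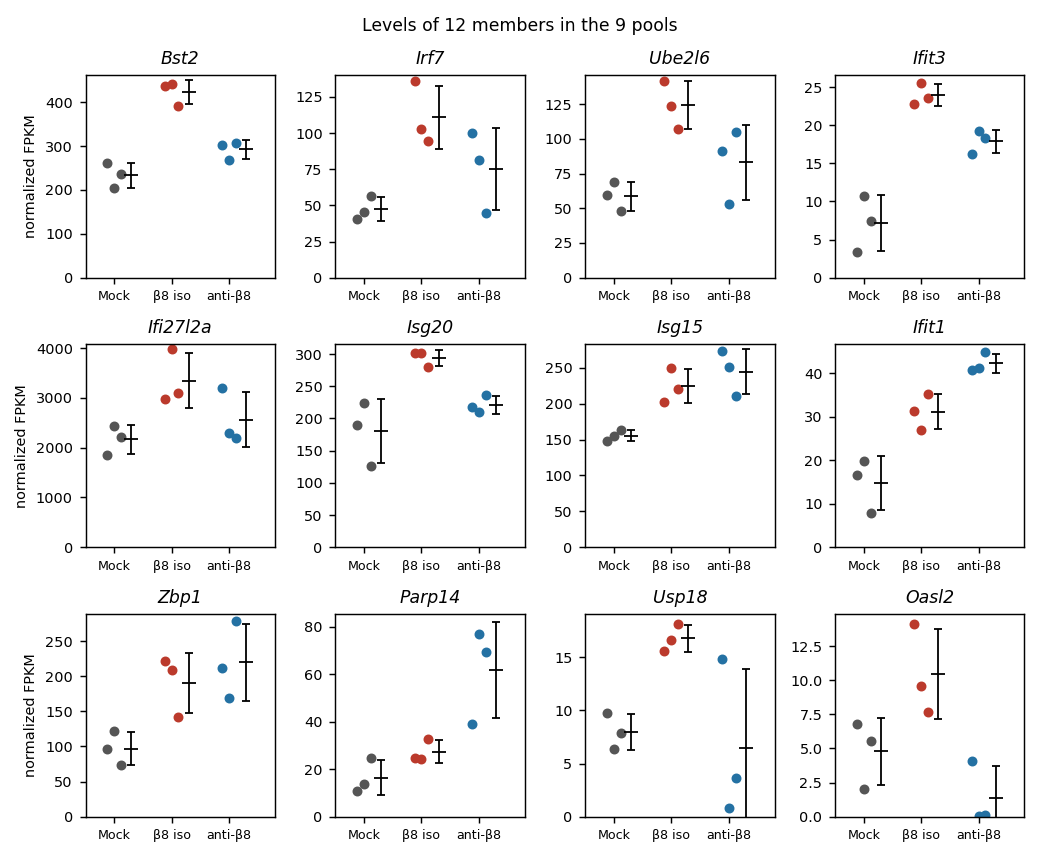
Normalized FPKM (vertical axis, linear, from 0) of 12 members in the 9 pools; each dot is a pool, and the bar beside it is the mean ± SD of the 3 pools, the lower ends for Usp18 and Oasl2 ending at the axis. In the upper row and Isg20, β8 isotype is the highest group, and in Parp14 and Ifit1 anti-β8 is. Anti-β8 pools 2 and 3 are near 0 in Oasl2. In Usp18, anti-β8 pool 2 is at 0.803 and pool 3 at 3.64 FPKM, both below every Mock pool.

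The upstream parts of the pathway were examined next. Of 19 genes for type I and type III interferons, 15 were listed at 0 in all 9 libraries, and 4, Ifnb1, Ifna4, Ifnk and Ifnz, were above 0 in at least 1, with 0.621 FPKM of Ifnb1 in β8 isotype pool 2 as the highest value. Ligand transcripts were thus at or near 0 in the sorted Tregs at this depth, and other cells of the tumours were not measured. Ifng, the gene of interferon-γ, had 5.38, 9.02 and 1.91 FPKM in Mock, 22.3, 4.64 and 8.49 under isotype control and 7.88, 3.43 and 0.0936 in anti-β8, with all groups overlapping (0.91 for β8 isotype against Mock, adjusted p = 1).

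Of the receptor genes, Ifnar1 overlapped between all groups. Ifnar1 had 23.8 to 34.9 FPKM in Mock, 23.1 to 40.1 under isotype control and 16.7 to 36.0 in anti-β8, and its log2 difference between β8 isotype and Mock was 0.02 ± 0.34 (adjusted p = 1). Ifnar2 had 68.1 to 81.4, 72.1 to 78.2 and 80.6 to 123 FPKM, with anti-β8 above β8 isotype in all pools (0.45 ± 0.20, adjusted p = 0.478). Ifngr1, a subunit of the interferon-γ receptor, was at 385 to 477 FPKM in Mock, 470 to 714 under isotype control and 268 to 358 in anti-β8, which was the lowest group. Its log2 difference was 0.46 ± 0.17 between β8 isotype and Mock, with overlapping pools (adjusted p = 0.738), and -0.83 ± 0.17 between anti-β8 and β8 isotype (adjusted p = 0.300). Irf1, a factor induced by both pathways, was higher in β8 isotype than in Mock by 0.74 ± 0.23 with overlapping pools (adjusted p = 0.567), and Socs1, an inhibitor of the JAK kinases, was at 197 to 254 FPKM in Mock, 236 to 341 under isotype control and 138 to 198 in anti-β8 (-0.78 ± 0.19 for anti-β8 against β8 isotype, adjusted p = 0.351). Over the 16 receptor and signalling genes tested, the median difference between β8 isotype and Mock was 0.02.

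Other interferon-stimulated genes outside the list were compared to see how widely the pattern reached. Of 40 tested, 17 had all β8 isotype pools above all Mock pools, against 1128 of the 12555 genes tested. In 1 they were all below, against 1063 genes. The median difference was 0.44, against 0.83 for the members, a difference that was not tested. One of the 40 passed the test between β8 isotype and Mock. This was Ly6a, the gene of the stem cell antigen on the T cell surface, which can share reads with Ly6c1 (15.0% of its distinct 50-base words). It rose from 291, 407 and 338 FPKM in Mock to 1050, 976 and 969 in β8 isotype, with 854, 759 and 976 in anti-β8. Its log2 difference from Mock was 1.54 ± 0.14 in β8 isotype (limma, adjusted p = 0.00301) and 1.33 ± 0.14 in anti-β8 (adjusted p = 0.00229), and the 2 β8 groups overlapped. Apol9b, a lipid-binding protein gene that can share reads with its neighbour Apol9a (52.3% of its distinct 50-base words), went the other way. It had 29.6 to 35.6 FPKM in Mock, 16.1 to 19.4 under isotype control and 0.0936 to 2.44 in anti-β8, and fell in anti-β8 by 3.01 on the log2 scale against β8 isotype (adjusted p = 0.0497) and fell by 3.86 against Mock (adjusted p = 0.00439). Parp12, Lgals3bp and Epsti1 were higher in β8 isotype than in Mock in all pools, by 1.79, 1.78 and 0.63, with adjusted p-values of 0.385, 0.228 and 0.818.

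Genes more typical of interferon-γ were set beside them. The 14 interferon-inducible GTPases, which attack membranes around intracellular parasites, had a median difference of 0.81 between β8 isotype and Mock and of 0.87 between anti-β8 and Mock. In each of these comparisons 12 of the 14 had all pools above all Mock pools, against 1128 and 990 of the 12555 genes tested. Between anti-β8 and β8 isotype their median was 0.08, with 0 at an unadjusted p under 0.05, where the members' median was -0.39. Gbp2 had 21.2, 21.8 and 15.5 FPKM in Mock, 56.7, 39.2 and 39.3 under isotype control and 51.3, 42.5 and 79.1 in anti-β8, and Igtp had 121 to 170, 224 to 294 and 230 to 318 FPKM. In both, the 2 β8 groups overlapped above Mock. Of 12 genes for the cutting and loading of peptides on MHC class I, 9 had all β8 isotype pools above all Mock pools. Over all 12555 genes tested 1128 did, and the median difference of the 12 was 0.56. The proteasome activator Psme2 had 464 to 504 FPKM in Mock and 686 to 839 in anti-β8, and rose by 0.69 ± 0.11 on the log2 scale (limma, adjusted p = 0.0389). Whether the members differed from these lists was not tested.

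Markers of other cells were read in the unnormalized table as sums over marker lists, beside the stromal sums given above. The 8 dendritic cell markers other than Bst2, which also marks plasmacytoid dendritic cells, summed to 31.1 to 50.5 FPKM in Mock, 46.1 to 96.6 under isotype control and 79.7 to 161 in anti-β8. The 7 B cell markers summed to 19.2 to 74.5, 42.4 to 141 and 104 to 203 FPKM. The stromal sum was highest in β8 isotype, as most members were, while the dendritic and B cell sums ran highest in anti-β8. The 11 myeloid markers overlapped between groups, at 285 to 561, 207 to 734 and 407 to 735 FPKM, and S100a8 and S100a9 were at 0 in all anti-β8 pools. The 5 erythroid markers ran against the members, with sums of 62.1 to 315 FPKM in Mock, 32.6 to 39.4 under isotype control and 0 to 86.7 in anti-β8. Of the 4 tested, all 4 had every β8 isotype pool below every Mock pool, against 1063 of the 12555 genes tested. Their median log2 difference was -2.14, and the median between anti-β8 and Mock was -3.25. The 5 CD8 T and NK cell markers summed to 32.5 to 47.6, 32.3 to 68.1 and 46.9 to 60.9 FPKM, and the 5 epithelial markers to 33.0 to 52.3, 45.7 to 60.2 and 28.7 to 123 FPKM. The 7 Treg markers summed to 2144 to 2600 FPKM in Mock, 2765 to 2882 under isotype control and 2537 to 2626 in anti-β8. The part of these cells in the members' differences was not tested.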

How the data were processed

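The authors deposited FPKM per gene as an unnormalized table of 53251 genes (1 row with shifted cells was left out) and a normalized one of 16409 genes. Per the values, the deposited normalized FPKM are quantile-normalized, which averages genes at 0. Build GRCm38 and the tools STAR 2.6.1a, RSEM 1.3.1, Cufflinks, Picard and Trim Galore 0.5.0 are listed, per the submitters' processing notes, without the role of each. Per the labels' protocols, RNA was extracted with the RNeasy Mini kit and libraries were made with SMART-Seq v4 Ultra and Nextera XT, which mark neither strand nor molecules. Read totals are not in the tables, and depth relative to Mock pool 1, from the lowest values above 0, was 1.00 to 1.14.

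FPKM are not counts, so log2(FPKM + 1) was fitted with limma 3.58.1 (R 4.3.3) over all 9 libraries (trend and robust settings, two-sided), with Benjamini-Hochberg adjustment over the genes kept and a threshold of 0.05. Errors are standard errors of that model, which estimates a single spread per gene from all 9 libraries. The errors and p-values of β8 isotype against Mock therefore include the spread of the anti-β8 pools, with the sparse libraries among them. The labels say that pools are separate, not whether tumours or sorts were made on separate days, so p-values measure the spread between these pools. Values in every pool are given for the 6 members of smallest p in each comparison, the most abundant member of each role, and Stat2, Irf9, Irf7, Isg15, Usp18 and Bst2. Members outside that rule are given by their ranges, some with single pools. Among genes outside the list, those of smallest p in their lists and the main pathway genes are named, except for a gene that is not reported here. The members, lists and tests were chosen with earlier results of these data known. The fit was tested on simulated data. Pool numbers are shared by the groups, but deviations from the group means of same-numbered pools correlated between -0.04 and 0.05, so no pairing was used. Coordinates and transcript sequences came from GENCODE M21 (GRCm38), promoter windows from RefSeq.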

Additional observations from a re-analysis of the deposited data

How the results depend on the processing

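Each result was recomputed with the unnormalized table, a pseudocount of 0.1, no filter on low values, no trend and robust settings, array weights, the pool number as a replicate block, only the 6 libraries of the groups compared, without both sparse anti-β8 libraries, and without each library in turn. The sign of a member's difference was the same in all alternatives for 37 of 39 members between β8 isotype and Mock (the exceptions were Mx1 and Herc6), 22 of 39 between anti-β8 and β8 isotype and 28 of 39 between anti-β8 and Mock. Some alternatives cannot change a member's difference, so their agreement in sign was fixed in advance. These are the filter, the trend and robust settings, the replicate block, only the 6 libraries compared, and leaving out libraries of a group not compared. Members higher in β8 isotype than in Mock at an adjusted p under 0.05 numbered 0 in the main model, 6 with array weights (Ifit3, Irf7, Oas1a, Rtp4, Ube2l6 and Bst2), and 3 (Irf7, Ube2l6 and Bst2) both without the 2 sparse anti-β8 libraries and with only the 6 libraries compared. Leaving out single libraries gave 0 there, with a median member difference between 0.74 and 0.86. Between anti-β8 and β8 isotype, members lower at an adjusted p under 0.05 numbered 0 to 2 when single libraries were left out, and the median was -0.39 to -0.25, and -0.19 without both sparse libraries, where 1 anti-β8 library remained and was assumed to vary like the other groups. Between anti-β8 and Mock, members higher at an adjusted p under 0.05 numbered 0 to 1, the median was 0.36 to 0.62, and it was 0.73 without both sparse libraries. At an unadjusted p under 0.05, the 22 members higher in β8 isotype than in Mock became 34 without both sparse libraries or with only the 6 libraries, and 16 to 28 when single libraries were left out. The 6 members lower in anti-β8 than in β8 isotype became 2 with array weights, 2 without both sparse libraries, and 4 to 12 with single libraries left out. The 14 higher in anti-β8 than in Mock, against 6.09% of genes, became 8 with only the 6 libraries, and 7 to 16 with single libraries left out. The count of 7 was reached without Mock pool 3, where 4.14% of genes were higher. The share of all genes called thus moved with the setting. Where no share is given, a change in a count cannot be read as a change in the members. With the replicate block 0 members passed in any comparison, and the unadjusted counts were 21, 6 and 12. The medians stayed at 0.83, -0.39 and 0.49, since a balanced block cannot change them. Same-numbered pools did not deviate together. Values near 1 FPKM, such as those of Ifit2, Ifit3b, Oas2 and Ifi44, are limited by depth.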

Other observations

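Genes that act upstream of interferon production were read beside the members. Of 12 tested, Samhd1, which degrades nucleotides and limits retroviral DNA, had the smallest p between β8 isotype and Mock. It had 200, 208 and 209 FPKM in Mock, 323, 254 and 268 under isotype control and 323, 233 and 347 in anti-β8, so that all pools of both β8 groups were above Mock, by log2 differences of 0.45 ± 0.17 (limma, adjusted p = 0.724) and 0.53 ± 0.17 (adjusted p = 0.238). Adar, which edits double-stranded RNA and keeps it from the sensors, had 5.19, 6.16 and 5.16 FPKM in the Mock pools and 11.5, 11.3 and 11.8 under isotype control. In anti-β8 it had 11.4, 1.40 and 13.8 FPKM, with the low value in one of the sparse libraries. That value also enters the model's error for β8 isotype against Mock, where the difference did not pass (0.95 ± 0.60, adjusted p = 1). Adar was chosen for mention after its values were seen.

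The DNA-sensing adaptor gene Tmem173, which encodes STING, had 36.9 to 61.7 FPKM in Mock, 58.2 to 78.0 under isotype control and 40.9 to 63.2 in anti-β8, with overlapping pools (0.52 for β8 isotype against Mock, adjusted p = 0.939). Tbk1, the kinase that acts after STING and MAVS, was lower in every pool of both β8 groups than in every Mock pool. Anti-β8 had 13.9 ± 5.89 FPKM against 24.5 ± 2.20 in Mock (mean ± SD of 3 pools), a log2 difference of -0.85 ± 0.37 (limma, adjusted p = 0.349). The β8 isotype pools had 11.1 to 21.4 FPKM, a log2 difference of -0.48 ± 0.37 from Mock, and overlapped anti-β8. The lowest anti-β8 values were in the sparse pools 2 and 3. Over the 12 genes the median difference between β8 isotype and Mock was 0.18, beside 0.83 for the interferon-stimulated genes.

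Among the interferon-stimulated genes, the median difference between β8 isotype and Mock was above 0 at each level of expression, fitted without the filter. It was 0.91 over the 18 with a Mock mean under 10 FPKM, 0.80 over the 17 between 10 and 100, and 0.62 over the 5 above 100. The 18 include Oas2, which did not pass the filter, and Ifit2 and Ifit3b, which passed only because of their values outside Mock. They also include Mx1, at -0.22. The levels were cut on the Mock mean, which itself enters the difference, so a dependence on level was not tested. The summed FPKM of all 40 was 4729 to 5307 in Mock, 7018 to 7843 under isotype control and 5704 to 7009 in anti-β8. Most of it came from Ifi27l2a and Shisa5. Without them the sums were 1199 to 1327 FPKM in Mock, 2085 to 2333 under isotype control and 1775 to 2022 in anti-β8.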
